A study of Sus scrofa with 61 samples.

Results

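The expression of 10 genes of the cAMP-responsive and immediate early families was followed in longissimus muscle of pig fetuses: CREM, CREB1, ATF3, NR4A1, NR4A2, NR4A3, FOS, JUN, JUNB and EGR1. A probe was taken when the gene name in the array files, or its symbol in the study's own gene lists, was 1 of these 10 names, which gave 19 of the 60306 probes that are not controls. Of the 19, 17 were among the 42436 probes kept after leaving out dim ones, and they covered 8 of the 10 genes. The probes of JUN and JUNB chosen by name were too dim to be tested. The array also holds 5 probes that it names by the older names C-JUN (1 probe, JUN) and NOR-1 (4 probes, NR4A3) and that were matched through RefSeq. They were outside the rule, all passed the filter, and their values are given under those array names.

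Each gene is described by 1 main probe and then by its other probes. The main probe of CREM (named LOC100512363 on the array) and that of NR4A3 (named TC564655) owe their symbols to the study's own lists. Those lists hold probes whose age change differed between genotypes, or with a parent's genotype, in these same fetuses. Their pattern is thus not independent of that choice. The second CREM probe and the 4 NOR-1 probes were not chosen that way, but they were read on the same arrays. The study had itself named CREM among the genes affected by the maternal genotype.

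The samples were 61 male fetuses taken by caesarean, 1 array per fetus, and the study asked which muscle genes change in the last weeks before birth in breeds that differ in survival at birth. LW fetuses (Large White, LWLW in the labels) and MS fetuses (Meishan, MSMS) were purebred, LWMS fetuses came from MS sows and LW boars, and MSLW fetuses came from LW sows and MS boars. At gestational day 90 there were 8 fetuses of each genotype, and at day 110 there were 9 LW, 7 MS, 8 LWMS and 5 MSLW fetuses. The sow of each fetus is not in the labels, so littermates were counted as separate fetuses, and the p-values may be too small for that reason. By the study's design, litters held fetuses of both boar breeds, so dam breed was compared between sows and boar breed within litters. The p-values by dam are thus the more exposed to this. Each fetus grew in its own dam, so the breed of the dam and the uterus cannot be told apart by design, and litter could not be separated from either. Below, "MS dams" stands for MS and LWMS fetuses together, and "LW dams" for LW and MSLW fetuses together. Values are normalized log2 intensities, on which a difference of 1 is a doubling, and a difference was called when its limma p, adjusted over all 42436 probes, was under 0.01. In whole muscle, fewer cells of a type and less RNA per cell cannot be told apart.

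CREB1 and CREM are bZIP factors that bind cAMP response elements. CREB1 is present in most cells and is switched on when protein kinase A phosphorylates it, whereas the CREM gene encodes activators and also ICER, a short repressor that cAMP itself induces. ATF3 is a stress-induced factor of the same family. NR4A1, NR4A2 and NR4A3 are orphan nuclear receptors whose transcription rises within minutes of a stimulus, and in skeletal muscle they are known for their response to adrenergic signals and exercise and for their effect on glucose and lipid use. FOS, JUN and JUNB form the AP-1 dimers, and EGR1 is a zinc finger factor of the same first wave of transcription.

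The array reads each transcript through oligonucleotides of 60 bases. TC564655, the brightest NOR-1 probe, the second CREM probe and both NR4A1 probes are compared in the text but not printed. The oligonucleotides below are a selection. They are printed as the array files give them, from 5′ to 3′. In the CREB1 set the capitals mark the 53 bases that all 3 oligonucleotides share, so these 3 probes are not separate readings of the gene. In NR4A2 they mark the 32 bases shared with the other NR4A2 probe. In JUNB they mark the 44 bases whose opposite strand starts with ATG and has no stop codon up to the end of the oligonucleotide. Which strand that probe reads was not settled here. Those of CREM, ATF3, NR4A3, FOS and JUN have no capitals and are shown to identify what was measured.
CREM, main probe: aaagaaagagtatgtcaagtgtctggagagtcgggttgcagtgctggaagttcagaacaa
CREB1, A_72_P177871 (main probe): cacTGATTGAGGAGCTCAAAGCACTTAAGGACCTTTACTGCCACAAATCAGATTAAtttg
CREB1, A_72_P441778: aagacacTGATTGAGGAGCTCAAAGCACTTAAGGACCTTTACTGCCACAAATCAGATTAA
CREB1, O8455: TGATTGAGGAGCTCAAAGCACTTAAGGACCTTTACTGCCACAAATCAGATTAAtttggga
ATF3: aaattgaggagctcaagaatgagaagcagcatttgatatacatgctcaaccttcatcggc
NR4A2, main probe: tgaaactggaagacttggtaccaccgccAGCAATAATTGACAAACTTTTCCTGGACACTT
NR4A3, dimmest NOR-1 probe: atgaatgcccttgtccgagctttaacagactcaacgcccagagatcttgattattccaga
FOS, dimmest probe: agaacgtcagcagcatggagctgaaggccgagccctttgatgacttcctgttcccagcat
JUN, C-JUN probe: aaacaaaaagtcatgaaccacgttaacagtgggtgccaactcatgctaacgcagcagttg
JUNB: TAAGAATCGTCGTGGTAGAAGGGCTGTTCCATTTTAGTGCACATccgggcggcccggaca

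The other probes differed in how far they overlap. The CREM pair shared no run longer than 6 bases and the 5 NR4A3 probes none longer than 7. Among the 5 FOS probes, 1 pair shared 57 bases and the main FOS probe shared 21 with each of that pair. Which transcript forms of CREM, ICER among them, the 2 CREM oligonucleotides read was not tested.

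Between 34347 and 45684 probes were well above background on an array, the array with the fewest being a day 90 MS fetus. Group medians were 42935 to 43551 at day 90 and lower, 40743 to 42387, at day 110, and the part of this in the age differences was not tested. The 8 slides each carried 6 to 8 of the 8 groups, so slide and group were close to balanced. All 7 markers of the skeletal muscle fibre (among them ACTA1, CKM and TTN) were kept, with a summed log2 intensity of 20.63 to 20.93 in every fetus.

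CREM fell between day 90 and day 110, and it fell further in fetuses of MS dams. In LW fetuses its level ranged from 11.18 to 11.69 (median 11.38) at day 90 and from 10.68 to 11.32 (median 11.12) at day 110. In MSLW fetuses, from the same dam breed, it ranged from 11.16 to 12.05 (median 11.46) at day 90 and was 11.39, 11.09, 11.33, 11.08 and 11.05 at day 110. Both genotypes from LW dams thus overlapped between the days. In MS fetuses the range was 11.32 to 11.93 (median 11.59) at day 90 and 10.40 to 10.92 (median 10.75) at day 110. In LWMS fetuses it was 11.32 to 11.96 (median 11.61) at day 90 and 10.36 to 10.95 (median 10.67) at day 110. In both genotypes from MS dams, every fetus of day 110 was below every fetus of day 90.

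**Figure D1:**
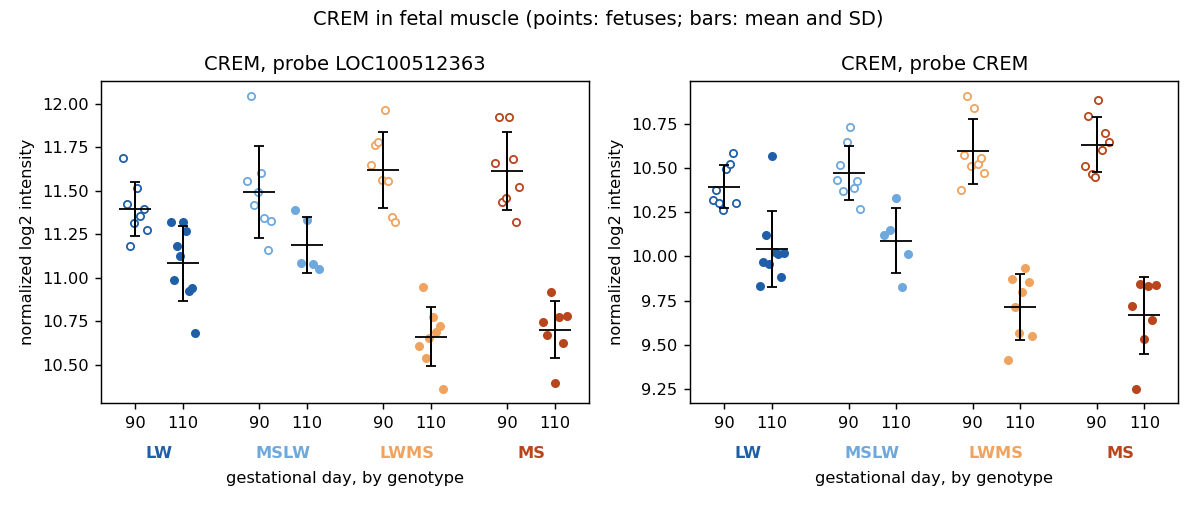
Normalized log2 intensity of both CREM probes in each fetus (points) by genotype and gestational day, with the mean and SD of each group (bars). On the main probe the day 110 fetuses of MS dams (MS and LWMS) lie between 10.36 and 10.95 and the day 90 fetuses of the same dams between 11.32 and 11.96.

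The fall in CREM was -0.91 (SE 0.106, adjusted p = 4.86e-11) in MS and -0.96 (SE 0.102, adjusted p = 5e-12) in LWMS, a fall of 1.88-fold and 1.94-fold. In LW it was -0.31 (SE 0.0994, adjusted p = 0.00666), and in MSLW the difference was -0.31 (SE 0.117) and was not called (adjusted p = 0.0228). The difference between the age changes of MS and LW was -0.60 (SE 0.145, adjusted p = 0.00325). When the fetuses were described by the breeds of dam and boar instead, the age change differed with the breed of the dam by -0.63 (SE 0.105, adjusted p = 6.63e-05) and with that of the boar by 0.02 (SE 0.105, adjusted p = 0.951).

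The second CREM probe, which carries the gene's name on the array, showed the same order. With LW dams it fell by 0.35 (LW) and 0.39 (MSLW), and with MS dams by 0.97 (MS) and 0.88 (LWMS), all 4 called, and its age change differed with the dam's breed by -0.55 (SE 0.0933, adjusted p = 7.54e-05). The 2 probes correlated at r = 0.484 over the 61 fetuses after group means were removed.

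The split of CREM by dam lay mainly at day 110. There, MS dams were below LW dams by 0.45 (SE 0.0778, adjusted p = 9.94e-06), whereas at day 90 they were higher by 0.17 (SE 0.0723), which was not called (adjusted p = 0.111). Between the reciprocal crosses, which carry the same breeds in opposite roles, MSLW was above LWMS at day 110 by 0.53 (SE 0.117, adjusted p = 0.00512). This call was lost in 5 of the settings described at the end, among them the omission of the MSLW day 110 fetus numbered 1 (0.47, adjusted p = 0.0248) or 3 (0.49, adjusted p = 0.0296). Within slides, the mean of MS dams was above that of LW dams on 8 of 8 slides at day 90 (by 0.03 to 0.38) and below it on 7 of 7 slides at day 110 (differences of -0.73 to -0.18).

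The 8 group means of CREM ran from 11.62 in LWMS and MS at day 90 through 11.49 in MSLW and 11.39 in LW at day 90, to 11.19 in MSLW and 11.08 in LW at day 110, and last to 10.70 in MS and 10.66 in LWMS. Neighbours in that order differed by less than 1 within-group SD, except LW at day 90 against MSLW at day 110 and LW against MS at day 110. The fetuses whose CREM deviated from the group mean also deviated, in the same direction, in RPL14 (r = 0.766, a ribosomal protein), MRPS23 (r = 0.729, a protein of the mitochondrial ribosome) and YWHAB (r = 0.727, a 14-3-3 protein). These were the 3 genes most like CREM over the 61 fetuses, and with slide also removed the correlations were 0.651, 0.437 and 0.571.

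CREB1, the constitutive factor that CREM can oppose, varied little. Over all 61 fetuses its main probe ranged from 6.31 to 7.97, and the ranges of the 8 groups overlapped. No age change of the main probe was called in any genotype: the differences ran from -0.27 in LWMS (SE 0.116, adjusted p = 0.0428) to 0.04 in MSLW (SE 0.132, adjusted p = 0.826). Averaged over genotypes, the main probe differed by -0.14 (SE 0.06, adjusted p = 0.0258), which was not called, while the other 2 probes fell by 0.21 (adjusted p = 4.73e-05) and 0.26 (adjusted p = 0.00017). The second probe also fell in LWMS, by 0.33 (adjusted p = 0.00137). No difference between breeds or parents was called for any of the 3.

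ATF3 was higher at day 110, with a wide spread between fetuses. In LW its level ranged from 2.53 to 6.79 (median 4.87) at day 90 and from 5.73 to 9.82 (median 7.19) at day 110. In MSLW it ranged from 3.75 to 6.88 (median 5.25) at day 90 and was 6.25, 6.04, 7.0, 5.45 and 6.45 at day 110. In LWMS the median went from 5.33 (3.88 to 8.62) to 6.12 (5.10 to 9.59), and in MS from 5.03 (4.46 to 8.76) to 5.74 (4.92 to 7.98). The days overlapped in every genotype.

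The rise of ATF3 was called in LW, at 2.49 (SE 0.636, adjusted p = 0.000706), a 5.61-fold difference. In the other genotypes the differences were 1.03 (SE 0.746) in MSLW, 0.87 (SE 0.654) in LWMS and 0.61 (SE 0.677) in MS, none of them called. The average over genotypes was 1.25 (SE 0.34, adjusted p = 0.000813). That LW alone was called does not show that the genotypes differed: the age changes of MS and LW differed by -1.87 (SE 0.929, adjusted p = 0.175). The size also depends on the background correction, since the LW difference was 1.35 with another correction. ATF3 was well above background on 57 of 61 arrays, and the 4 others were all at day 90.

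The age change of NR4A3 went with the dam's breed on all 5 of its probes, and its size depended on the probe. On the probe TC564655, LW fetuses ranged from 2.50 to 4.40 (median 3.49) at day 90 and from 6.07 to 8.15 (median 7.23) at day 110. MSLW fetuses ranged from 1.70 to 5.90 (median 4.91) at day 90 and were at 8.09, 6.34, 7.93, 7.33 and 7.28 at day 110. In both genotypes from LW dams, the days did not overlap. MS fetuses ranged from 4.61 to 7.24 (median 6.41) at day 90 and from 3.34 to 6.91 (median 5.95) at day 110. LWMS fetuses ranged from 3.72 to 7.59 (median 5.55) at day 90 and from 4.34 to 7.45 (median 5.97) at day 110. The days overlapped almost fully in both genotypes from MS dams.

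**Figure D2:**
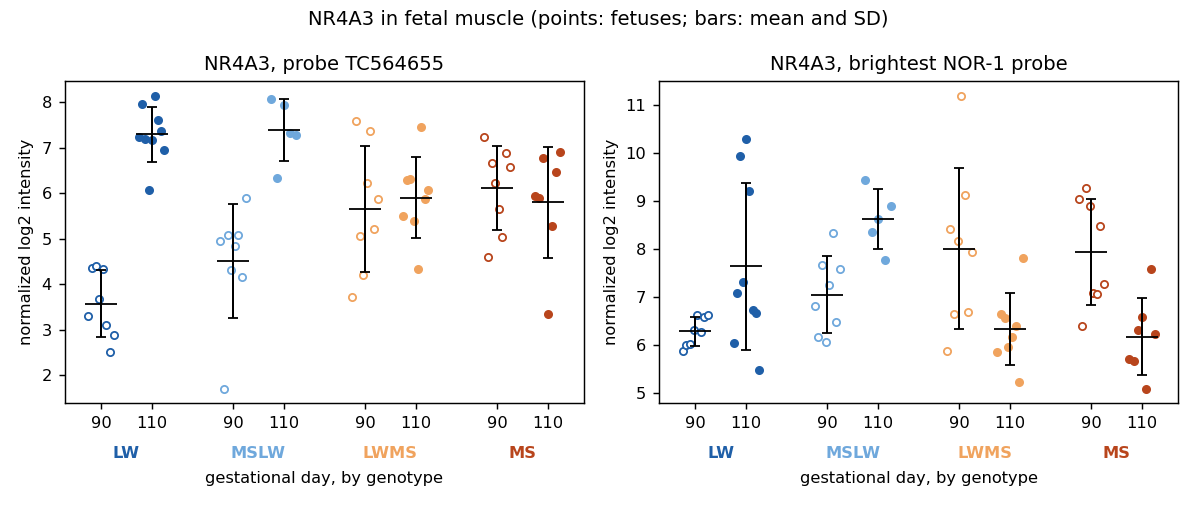
Normalized log2 intensity of NR4A3 in each fetus (points) by genotype and gestational day, on the probe TC564655 (left) and on the brightest NOR-1 probe (right), with the mean and SD of each group (bars). On TC564655 all LW fetuses of day 110 lie at 6.07 or above and all LW fetuses of day 90 no higher than 4.40, while the fetuses of MS dams overlap between the days.

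On TC564655 the rise was 3.73 in LW (SE 0.477, adjusted p = 1.26e-09), or 13.3-fold, and 2.89 in MSLW (SE 0.56, adjusted p = 1.46e-05), or 7.4-fold. In LWMS the difference was 0.25 (SE 0.491, adjusted p = 0.685) and in MS it was -0.31 (SE 0.508, adjusted p = 0.606). The age changes of MS and LW differed by -4.04 (SE 0.697, adjusted p = 5.81e-05). The age change differed with the dam's breed by -3.36 (SE 0.504, adjusted p = 1.35e-05) and with the boar's by -0.69 (SE 0.506, adjusted p = 0.558). These sizes rest on dim spots, because in LW at day 90 the probe was well above background on 3 of 8 arrays. With the normexp correction, which adds an offset, the LW rise was 1.59 and the difference by dam -1.51, both called.

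The brightest NOR-1 probe, well above background on all 61 arrays, showed the same split by dam but around another centre. LW fetuses ranged from 5.89 to 6.64 (median 6.29) at day 90 and from 5.48 to 10.29 (median 7.08) at day 110. MSLW fetuses ranged from 6.08 to 8.34 (median 7.03) at day 90 and were at 9.45, 8.35, 8.63, 7.78 and 8.89 at day 110. MS fetuses went from 6.41 to 9.26 (median 7.88) at day 90 to between 5.10 and 7.59 (median 6.24) at day 110, and LWMS from 5.87 to 11.19 (median 8.05) to between 5.24 and 7.81 (median 6.29). The days overlapped in all 4 genotypes, and the spread was widest in LW at day 110 (SD 1.74) and in LWMS at day 90 (SD 1.68).

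On this NOR-1 probe, NR4A3 fell in MS by 1.77 (SE 0.567, adjusted p = 0.00543) and in LWMS by 1.67 (SE 0.548, adjusted p = 0.00697), while the differences of 1.35 in LW and 1.57 in MSLW were not called (adjusted p = 0.0276 and 0.0292). The calls in MS and LWMS were each lost in 2 or more other settings. The average over genotypes was -0.13 (SE 0.284, adjusted p = 0.682), against 1.64 (adjusted p = 7.07e-08) on TC564655. The difference by dam was as clear as before, at -3.16 (SE 0.561, adjusted p = 0.000159), and with the boar's breed it was 0.06 (SE 0.564, adjusted p = 0.98). The 3 other NOR-1 probes gave -3.13, -2.13 and -3.05 by dam, all called. The split by dam was thus called on all 5 probes, from -3.36 to -2.13, whereas the calls within a genotype differed between probes.

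The NR4A3 probes formed sets. After group means were removed, 3 NOR-1 probes correlated with each other at r = 0.959 to 0.983, whereas TC564655 correlated with those 3 at r = 0.372 to 0.406 and with the fourth NOR-1 probe at 0.688. The fourth is the dimmest, well above background on 44 of 61 arrays, and it rose in LW (1.68, adjusted p = 0.000406) and MSLW (1.76, adjusted p = 0.00147), as TC564655 did.

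At day 90, NR4A3 on TC564655 was higher in MS than in LW by 2.54 (SE 0.491, adjusted p = 7.26e-05) and higher with MS dams by 1.85 (SE 0.347, adjusted p = 9.74e-05). At day 110 it was lower with MS dams by 1.49 (SE 0.374, adjusted p = 0.00197). The brightest NOR-1 probe differed by 1.30 at day 90 (adjusted p = 0.0174, not called) and was lower by 1.88 at day 110 (adjusted p = 0.000497). Within slides, TC564655 was higher with MS dams on 8 of 8 slides at day 90 (by 1.12 to 3.06) and lower on 7 of 7 at day 110 (-3.20 to -0.60). The NOR-1 probe was higher on 8 of 8 at day 90 and lower on 6 of 7 at day 110.

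In the order of group means, TC564655 was highest in MSLW (7.39) and LW (7.30) at day 110 and lowest in LW at day 90 (3.57). The step from LW at day 110 down to MS at day 90 (6.11) was the only one larger than 1 within-group SD. The genes whose deviations were most like those of the brightest NOR-1 probe were TRIM63 (r = 0.685), GADD45B (r = 0.63) and, just below it, ARRDC3, which encode a muscle ubiquitin ligase, a stress-induced regulator of growth arrest and an arrestin family protein. For TC564655 they were TMEM249 (r = 0.605), DDIT4 (r = 0.565), an inhibitor of mTOR signalling, and CDK9 (r = 0.556), a kinase of transcript elongation.

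NR4A1 and NR4A2, the other receptors of the family, moved far less. The main NR4A1 probe ranged from 13.37 to 14.66 in all fetuses except 1 LW fetus of day 90, at 17.97, and no comparison of it was called. A spot marked by the scanner software left 7 of 8 values in MSLW at day 90. The second NR4A1 probe went from a median of 9.92 (9.20 to 11.25) to 10.57 (9.66 to 11.20) in LW, and in MSLW from 10.18 (9.66 to 11.11) to 11.20, 10.94, 10.59, 10.69 and 10.99. Its groups overlapped in both. It rose by 0.50 averaged over genotypes (SE 0.101, adjusted p = 1.15e-05) and by 0.70 in MSLW (SE 0.221, adjusted p = 0.00613).

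The 2 NR4A1 probes, which share at most 10 bases, correlated at r = 0.704 within groups and yet gave averages of -0.15 and 0.50. The LW fetus of day 90 at 17.97 enters all of these, and it was also the highest of its group on the second probe (11.25). They were not recomputed without it. The genes most like the main NR4A1 probe were ASB12 (r = 0.96), OXT (r = 0.956) and NRTN (r = 0.949) over 60 fetuses. Without the 2 fetuses farthest from the median, 1 of them the fetus at 17.97, these were 0.886, 0.883 and 0.863.

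NR4A2 was close to flat. Its main probe ranged from 6.67 to 8.18 over all fetuses, and day 110 differed from day 90 by 0.05 in LW and 0.28 in MSLW (SE 0.135, adjusted p = 0.0714), and by -0.19 in MS and -0.34 in LWMS (SE 0.119, adjusted p = 0.0107). None was called, nor was any on the second probe. The age change differed with the dam's breed by -0.43 (SE 0.122, adjusted p = 0.0186) on the main probe and by -0.34 (SE 0.115, adjusted p = 0.0507) on the second. Both values are negative, as for NR4A3, and neither passed the threshold. WIPF3 was the most like it, at r = 0.561, and at 0.377 without the 2 farthest fetuses.

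FOS was higher at day 110 in LW. Its main probe ranged in LW from 10.27 to 11.996 (median 10.78) at day 90 and from 11.40 to 13.01 (median 11.71) at day 110. In MSLW it ranged from 10.24 to 11.79 (median 11.08) at day 90 and was 11.61, 11.43, 11.47, 11.16 and 10.58 at day 110. In LWMS the medians were 11.17 (10.76 to 12.50) and 11.59 (10.65 to 12.61), and in MS 11.88 (10.34 to 12.89) and 11.83 (10.79 to 12.73). The days overlapped in all 4 genotypes.

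The rise of FOS in LW was 0.97 (SE 0.311, adjusted p = 0.00673), a 1.96-fold difference, and it was called on each of the 5 FOS probes (0.97 to 1.14). No other genotype was called on any FOS probe. At day 90, MS was above LW by 0.96 (SE 0.32, adjusted p = 0.0252) on the main probe, which was not called. The age changes of MS and LW differed by -1.14 (SE 0.455, adjusted p = 0.0837), so a difference between the genotypes was not established. When LW and MS were fitted alone, the LW rise was no longer called (adjusted p = 0.0158). After group means were removed, the 5 probes correlated at 0.908 to 0.994, but between groups they were not alike. At day 90 the means of LW and MS were 10.92 and 11.88 on the main probe. On the dimmest FOS probe they were 7.19 and 7.33, so the day 90 difference between the breeds was not shared by all 5.

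**Figure D3:**
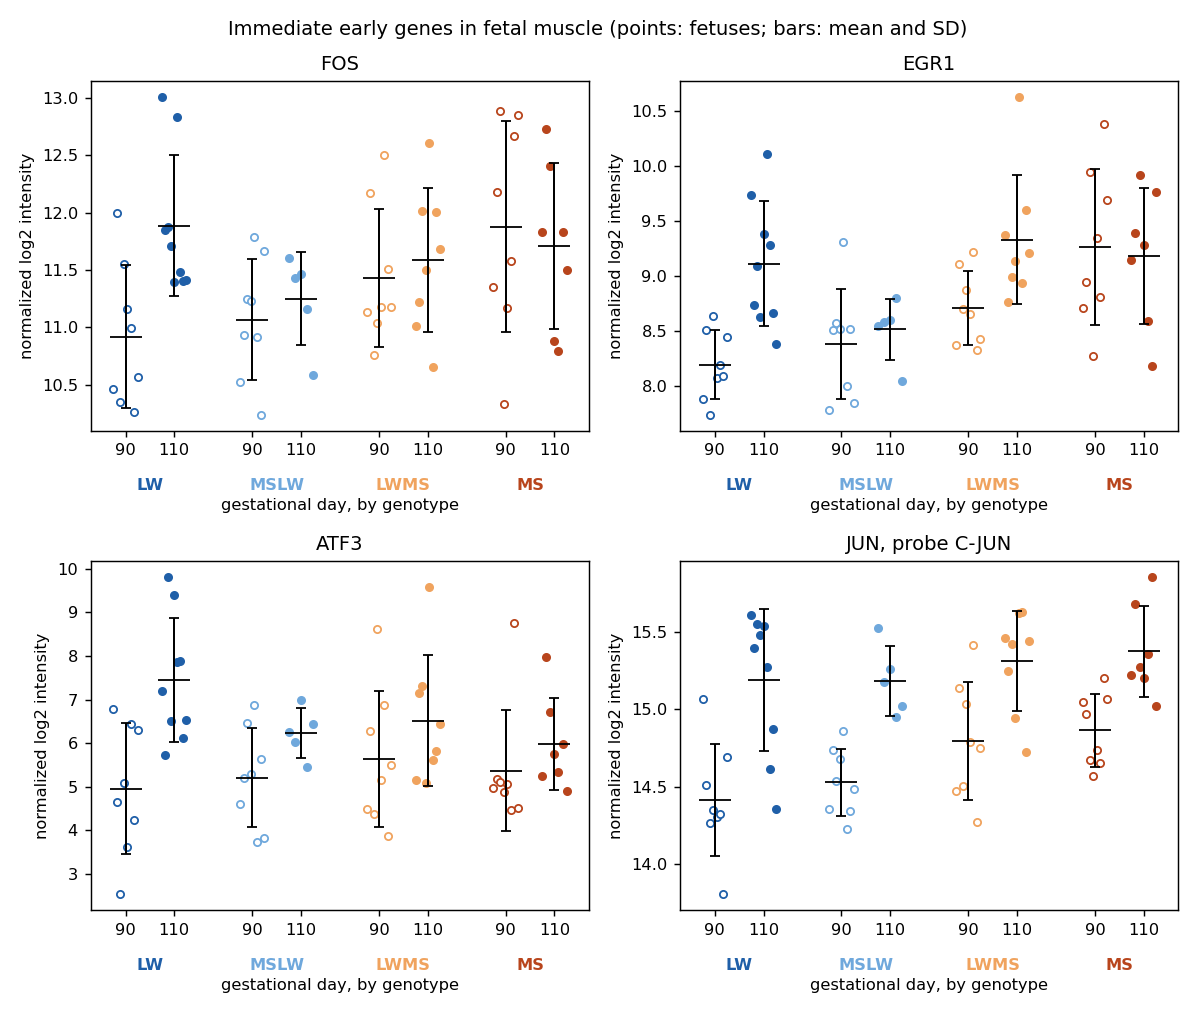
Normalized log2 intensity of FOS, EGR1, ATF3 and JUN (C-JUN probe) in each fetus (points) by genotype and gestational day, with the mean and SD of each group (bars). LW is lowest at day 90 for all 4 genes, with means of 10.92 for FOS, 8.20 for EGR1, 4.96 for ATF3 and 14.41 for JUN.

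EGR1 followed FOS in LW. It ranged there from 7.74 to 8.63 (median 8.14) at day 90 and from 8.39 to 10.11 (median 9.09) at day 110. In MS it ranged from 8.27 to 10.38 (median 9.15) at day 90 and from 8.18 to 9.92 (median 9.28) at day 110. In LWMS the medians were 8.68 (8.33 to 9.21) and 9.17 (8.77 to 10.63), and in MSLW the median was 8.51 (7.78 to 9.31) at day 90 before values of 8.54, 8.58, 8.60, 8.80 and 8.05 at day 110. The days overlapped in all 4 genotypes, and at day 90 the ranges of LW and MS overlapped in part.

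EGR1 rose in LW by 0.92 (SE 0.247, adjusted p = 0.00131) and on average by 0.40 (SE 0.132, adjusted p = 0.00576). In the others the differences were 0.62 in LWMS (SE 0.255, adjusted p = 0.0323), 0.13 in MSLW (SE 0.29) and -0.08 in MS (SE 0.264). The average was no longer called without the MSLW day 110 fetus numbered 4 (0.38, adjusted p = 0.0103). At day 90, EGR1 was higher in MS than in LW by 1.07 (SE 0.255, adjusted p = 0.00126), and higher with MS dams by 0.70 (SE 0.18, adjusted p = 0.00531). The second of these was lost without the MS day 90 fetus with the fewest probes above background (0.65, adjusted p = 0.0115). The age changes of MS and LW differed by -0.997 (SE 0.362, adjusted p = 0.0541), which was not called.

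JUN was measured well by the C-JUN probe alone. In LW this probe ranged from 13.81 to 15.07 (median 14.34) at day 90 and from 14.36 to 15.61 (median 15.40) at day 110. In MS it ranged from 14.57 to 15.20 (median 14.85) and from 15.02 to 15.86 (median 15.27), and in LWMS from 14.27 to 15.41 (median 14.77) and from 14.72 to 15.63 (median 15.43). In MSLW it ranged from 14.23 to 14.86 (median 14.51) at day 90 and was 15.52, 15.17, 15.26, 14.95 and 15.02 at day 110. Only in MSLW were the days apart.

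JUN was the one gene on this list whose rise was called in every genotype: by 0.77 in LW (adjusted p = 3.55e-05), 0.66 in MSLW (adjusted p = 0.00224), 0.51 in LWMS (adjusted p = 0.00552) and 0.51 in MS (adjusted p = 0.00718). ATF3 was also higher at day 110 in every genotype, but was called in LW alone. The average was 0.61 (SE 0.0848, adjusted p = 3.78e-09). The MS call was lost in 6 other settings, with values of 0.45 to 0.51, and the MSLW call without the MSLW day 110 fetus numbered 1 (0.57, adjusted p = 0.0141). Differences by dam's or boar's breed in the age change were -0.21 (adjusted p = 0.495) and -0.06 (adjusted p = 0.919). The JUN and JUNB probes chosen by gene name were each well above background on 2 of 61 arrays, with values of 1.53 to 5.06 for JUN and 1.61 to 5.36 for JUNB. At that level no difference between groups could be read, and JUNB has no other probe here.

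**Figure D4:**
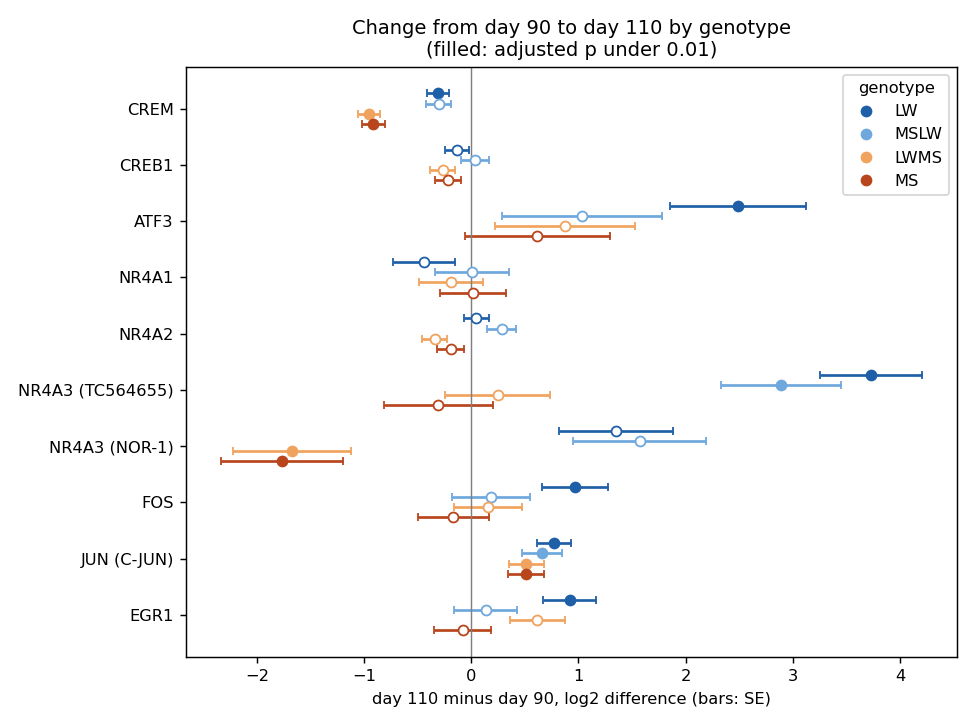
Difference between day 110 and day 90 (log2, with SE) of each member in the 4 genotypes, filled where the adjusted p was under 0.01. CREM lies below 0 in all 4 (-0.96 to -0.31, not called in MSLW) with LW and MSLW nearest 0, NR4A3 separates LW and MSLW from LWMS and MS on both probes shown, and JUN (C-JUN) rises in all 4.

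Counted over the 8 main probes, the age change was called for 5 in LW (4 higher, 1 lower), against 45.3% of all probes (21.8% higher, 23.5% lower). It was called for 1 lower in MS (56.6% of all probes, 28% lower), 1 lower in LWMS (50.9%, 25.7% lower) and 1 higher in MSLW (44.6%, 20.8% higher). On average over genotypes it was called for 4, 3 of them higher and 1 lower (72.3% of all probes, 37.3% higher and 35% lower). The median size of the members' age change was 0.68 in LW against 0.35 over all probes, but 0.21 against 0.50 in MS. With the brightest probe of each gene, the accession-named ones included, the counts of 9 genes were 5 in LW, 1 in MSLW, 3 in MS and 3 in LWMS.

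Between breeds at day 90, MS and LW differed in 2 of the 8 main probes, NR4A3 and EGR1, both higher in MS (12.8% of all probes differed, 6.23% higher). The crosses MSLW and LWMS differed in 0 of 8 (0.5% of all probes; 2 of 8 had an unadjusted p under 0.05). At day 110, MS and LW differed in 1, CREM, lower in MS (29% of all probes, 15.2% lower), and MSLW and LWMS in 1, also CREM, higher in MSLW (0.917%, 0.547% higher). Any difference among the 8 groups was called for 4 of 8 (CREM, NR4A3, ATF3 and EGR1), against 72.2% of all probes.

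By parent, the dam's breed was called for 2 of 8 at day 90 (NR4A3 and EGR1, both higher with MS dams; 6.49% of all probes, 2.9% higher) and for 2 of 8 at day 110 (CREM and NR4A3, both lower; 15.1%, 8.43% lower). The boar's breed was called for 0 of 8 at day 90 (5.13%) and 0 of 8 at day 110 (13.3%), with 1 of 8 under an unadjusted p of 0.05 at each day. For 2 of 8, CREM and NR4A3, the MS and LW age changes were unlike each other, both lower in MS (5.96% of all probes, 3.4% lower in MS). The age change differed with the dam's breed for CREM and NR4A3 too, lower with MS dams (3.04%, 1.88% lower), and with the boar's for 0 of 8 (0.462%; 1 of 8 under an unadjusted p of 0.05). These comparisons use the same fetuses, so they are not separate evidence. The main probes of CREM and NR4A3 came from the study's lists of probes with such differences in age change. Their 2 of 8 therefore cannot be weighed against the shares of all probes for the age change. The same limit applies to the other counts above in which either probe was called, by genotype, breed, cross or dam. An age change that differs between groups also entails a difference between them at 1 day or both. The median size of the difference by dam was 0.52 over the members and 0.15 over all probes, and by boar 0.43 and 0.13. For the age change, 1291 of all probes were called by dam and 196 by boar, with no sow in the model. The study's model, which had the sow, called more probes by the paternal than by the maternal genotype.

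Other cell types of the muscle also changed with age and, in part, with the dam. All 6 fibroblast markers fell, and 3 of them (COL1A1, COL1A2 and COL3A1) fell further with MS dams (-0.63 to -0.57, called). The summed log2 intensity of the 6 was 18.61 to 19.02 with LW dams and 18.67 to 18.91 with MS dams at day 90, and 16.98 to 17.83 and 16.44 to 17.63 at day 110. Of the other lists, the age change differed by dam for 1 of 7 muscle fibre markers (TNNT3, 0.26). It also did for 2 of 5 smooth muscle and pericyte markers, in opposite directions (ACTA2, 0.40, and CSPG4, -0.69). It was called for none of 4 satellite cell and myoblast, 5 endothelial, 4 adipocyte, 4 leukocyte, 4 Schwann cell and 2 red cell markers. At day 110 itself, 11 of the 41 markers differed by dam (15.1% of all probes did). With MS dams, 5 of 6 fibroblast markers were lower (-0.63 to -0.23), as were KDR (-0.76) and PECAM1 (-0.26) of 5 endothelial markers, FABP4 (-0.70) of 4 adipocyte markers and CSPG4 (-0.48) of 5 smooth muscle and pericyte markers. PAX7 (0.997) of 4 satellite cell markers and TTN (0.50) of 7 muscle fibre markers were higher. The other satellite cell markers, MYF5 (-0.34), MYOD1 (-0.27) and MYOG (-0.33), pointed lower and were not called. The other muscle fibre markers lay between -0.05 and 0.32, not called. Of the smooth muscle and pericyte list, ACTA2 (0.23) and TAGLN (0.24) pointed higher and PDGFRB (-0.19) and MYH11 (-0.13) lower, not called. CD3E was too dim to be kept and HBA had no probe by that name. The called markers thus moved with the same comparison as CREM and NR4A3 at day 110, and their part in it was not tested.

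Within groups, EGR1 varied with FOS and with ATF3 from fetus to fetus. Deviations from the group mean were compared for the 28 pairs of main probes with 100000 permutations, and 3 pairs were called. FOS and ATF3 were not among them (r = 0.305, adjusted permutation p = 0.0839). FOS and EGR1 correlated at r = 0.642 (rho = 0.576, permutation p = 1e-05, the smallest the permutations can give, adjusted p = 0.00028, n = 61). Without the 2 fetuses farthest in FOS, r was 0.594. ATF3 and EGR1 correlated at r = 0.511 (rho = 0.477, permutation p = 9e-05, adjusted p = 0.00126), and at 0.375 without the 2 farthest fetuses. With slide removed too, the pairs were at 0.693 and 0.542.

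**Figure D5:**
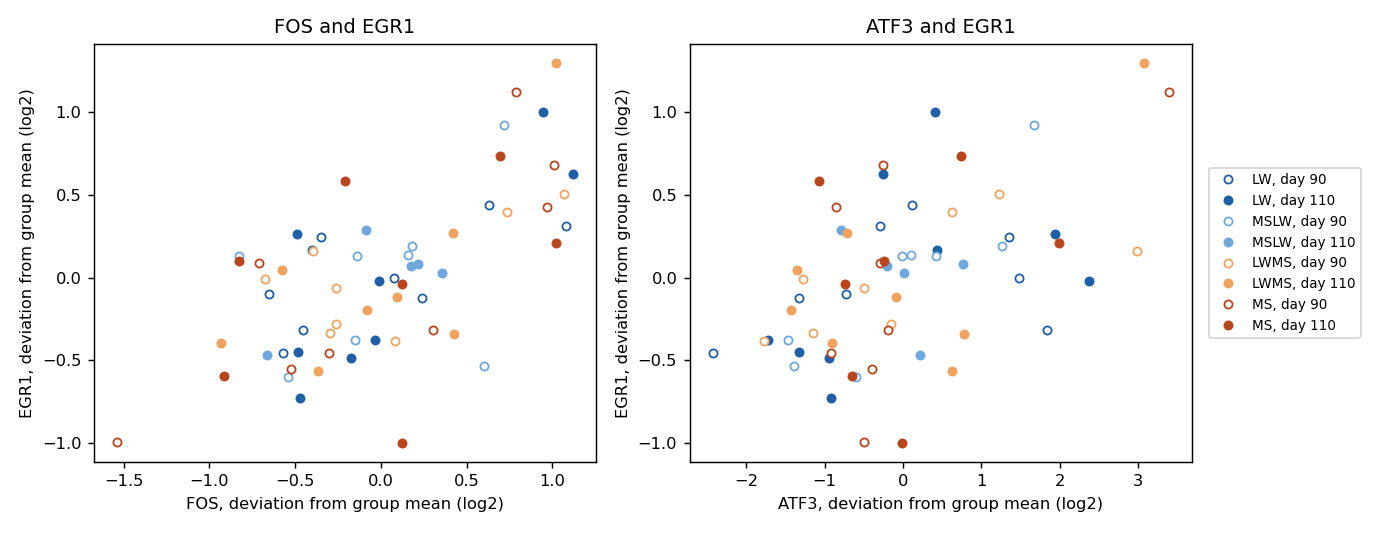
Deviation of EGR1 from its group mean (log2) against that of FOS (left) and ATF3 (right), 1 point per fetus, coloured by genotype and filled at day 110. Fetuses high in FOS tend to be high in EGR1 (r = 0.642), and the relation of ATF3 and EGR1 (r = 0.511) leans on the 2 fetuses farthest to the right.

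Within day 90 both pairs were called (FOS and EGR1 r = 0.676, ATF3 and EGR1 r = 0.596). Within day 110 the values were 0.612 and 0.423 over 29 fetuses and neither was called after adjustment (adjusted permutation p = 0.0448 and 0.107). The third pair, CREM and NR4A1, correlated at r = -0.389 (rho = -0.557, adjusted permutation p = 0.00215, n = 60), but at 0.0771 once slide was removed (adjusted permutation p = 0.802). CREM and NR4A3, whose age changes both split by dam, correlated at -0.108 (TC564655) and 0.0622 (NOR-1 probe) within groups, and neither was called. With the brightest probes, JUN and ATF3 also correlated, at 0.535 (adjusted permutation p = 0.00096). Litter was not removed from any of these.

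The 3 genes outside the list whose deviations were most like each immediate early member are given here as a description. IER2, itself an immediate early gene, was the one most like both FOS (r = 0.531) and EGR1 (r = 0.599). For FOS, the prostaglandin synthase gene PTGS2 (r = 0.523) and the smooth and cardiac muscle coactivator MYOCD (r = 0.514) came next, and the receptor phosphatase PTPRK (r = 0.49) was the last of the 3 for EGR1. BTG2, an antiproliferative early response gene, came second for ATF3 (r = 0.8) and EGR1 (r = 0.508). ATF3 was most like XIRP1 (r = 0.815), a stress-induced protein of the intercalated discs of heart muscle and the myotendinous junctions of skeletal muscle. OTUD1, a deubiquitinase, was the last of the 3 for ATF3 (r = 0.736) and the first for JUN (r = 0.73), where MCL1 (r = 0.674), a survival factor of the BCL2 family, and BTG2 (r = 0.654) followed. CREB1 was most like HSP90AA1 (r = 0.705), a chaperone.

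In the wider pathway, 92 genes of 5 lists were tested, and the share called for the age change averaged over genotypes is to be read against the 72.3% of all probes that were called (37.3% higher, 35% lower). Of 27 other AP-1 and immediate early genes, 18 rose and 5 fell, or 85.2% called, with a median of 0.49 against 0.04 over all probes. The growth arrest gene GADD45A rose by 1.92 and the MAP kinase phosphatase DUSP1 by 1.01. MAFF and MAFK, small Maf partners of the bZIP factors, were also called higher, but were well above background on 8 and 11 of 32 arrays at day 90 against 26 and 17 of 29 at day 110, so their fitted differences of 2.10 and 1.39 start from dim spots. RGS2, a regulator of G protein signalling, fell by 1.90, the matrix protein gene CTGF by 0.83, the phosphatase DUSP6 by 0.54 and the kinase SGK1 by 0.31.

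Among 13 other CREB and ATF factors and coactivators, 6 rose and 3 fell (69.2% called, median 0.14), a share near that of all probes. ATF5 rose by 0.78, ATF4 by 0.33 and CREB5 by 0.31. CREB3L4 was called higher by 1.45 as well, from dim spots, since it was well above background on 3 of 32 arrays at day 90 and 18 of 29 at day 110. JDP2, a repressor of AP-1, fell by 0.89, CREB3 by 0.73 and ATF7 by 0.31. Among 26 cAMP and protein kinase A genes, 12 rose and 11 fell (88.5% called, median 0.28). The phosphodiesterases PDE4C and PDE7A rose by 2.05 and 1.24 and the kinase inhibitor PKIB by 1.17, while the inhibitor PKIG fell by 1.51, the catalytic subunit PRKACA by 0.83 and the regulatory subunit PRKAR1A by 0.75. PDE8A, called lower by a difference of -0.81, was well above background on 22 of 32 arrays at day 90 and 3 of 29 at day 110.

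Of 10 partners of EGR1 and the NR4A receptors, 1 rose (RXRA, 0.50) and 6 fell (70% called, a share near that of all probes, median -0.16), with RXRG at -2.02, the EGR1 corepressor NAB2 at -0.74, and NCOA1 and NAB1 at -0.46 and -0.22. Of 16 muscle glucose and energy genes known as targets of CREB or NR4A factors, 14 rose and 1 fell (93.8% called, median 0.91, against 37.3% of all probes higher). PDK4 rose by 2.49, LPIN1 by 2.12, the glycogen phosphorylase PYGM by 1.85 and the phosphorylase kinase subunit PHKA1 by 1.48, and UCP2 fell by 1.42.

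The age change of 7 of these 92 genes differed with the breed of the dam (7.61%, against 3.04% of all probes). That of 0 of 92 differed with the boar's, where 0.462% of all probes were called, too few for a list of this size to tell. PKIB differed by -0.79 (adjusted p = 0.0007), DUSP1 by -0.69 (adjusted p = 0.00792), NFIL3, a bZIP repressor, by -0.64 (adjusted p = 0.00167), and PPARGC1A, a coactivator of mitochondrial genes, by -0.53 (adjusted p = 0.00178). RGS2 differed by -0.42 (adjusted p = 0.00375), the kinase inhibitor PKIA by -0.31 (adjusted p = 0.00635) and PYGM by 0.54 (adjusted p = 0.00738). NFIL3 is the one of these whose direction turned: it rose in LW by 0.46 (adjusted p = 0.00194) and fell in MS by 0.54 (adjusted p = 0.00063), and the difference of -0.998 between those changes was called (adjusted p = 0.000223).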

How the data were processed

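RNA of longissimus muscle of 61 fetuses was hybridized, 1 fetus per 1-colour porcine Agilent array. The authors deposited, per array, the spot intensities of Agilent Feature Extraction 10.10.1.1, and 1 table of normalized log2 values. This deposited log2 table, matched by the row number of the spot, differed from the quantile-normalized median signal by a median of 0.000629 in absolute value and was used as an alternative. The genome build is not given in the sources used here.

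The background-corrected intensity was used, values of spots that the scanner software called non-uniform (4 to 802 on an array) were treated as missing, and log2 values were quantile normalized. At most 2 spots per array were saturated. A probe was kept when well above background on 80% of the arrays of at least 1 group. The 8 groups, and the model of dam breed, boar breed and day, were fitted with limma 3.58.1 in R 4.3.3, over all 61 fetuses, with Benjamini-Hochberg adjustment at 1%. The study's random sow effect was left out because the labels do not give the sow. The number of arrays limits the precision. Code was tested on simulated data.

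The main probe of a gene was the one in the study's lists, otherwise its brightest kept probe. Genes of the pathway lists were named for the up to 4 largest changes each way, or a called difference by parent. 1 gene that this rule names is not reported here. The members, lists and rules were chosen with earlier results of these data known. The alternatives were the median signal, the deposited values, normexp correction (offset 50), scaling to the 75th percentile, other filters, marked spots kept, slide as a block, LW and MS alone, and omission of single fetuses. 2 were chosen after seeing the data: the brightest probe of each gene, and omission of the array with the fewest probes above background.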

Additional observations from a re-analysis of the deposited data

Results flagged for a closer look

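In 5 of the 80 groups examined (10 probes in 8 groups), 1 fetus stood far from the others by Dixon's gap-to-range ratio, which chance alone gives in about 1 in 20 groups. These were CREB1 in LW at day 110 (6.312 in the fetus numbered 9, the next at 7.027), ATF3 in MS at day 90 (8.764 in number 7, the next at 5.187), and NR4A1 in LW at day 90 (17.97 in number 8, the next at 14.62). The others were NR4A3 on TC564655 in MSLW at day 90 (1.704 in number 2, the next at 4.156) and EGR1 in LWMS at day 110 (10.63 in number 5, the next at 9.596).

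The age changes of MS and LW differed for CREM (-0.60426) and for NR4A3 on TC564655 (-4.0422) and on the brightest NOR-1 probe (-3.1155). The age changes also differed between the dam breeds, by -0.62871 for CREM, -3.3559 for NR4A3 on TC564655 and -3.1644 on the NOR-1 probe.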

How the results depend on the processing

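Of the recomputed values of named members, 458 kept direction and call, 23 lost the call and 0 turned. Only values called in the main fit were recomputed. Omission of an MSLW fetus of day 110 cannot move the size of a difference without that group, so part of the 458 was bound to keep its direction. Counts of members called moved most when probes had to be well above background on all arrays, which left 6 members to test and removed ATF3 and NR4A3 on TC564655. The counts were then 3 for the age change in LW, 2 in LWMS (NR4A2 added), 0 in MSLW, 2 on average, 1 for MS against LW at day 90, 1 by dam at each day, 1 for MS against LW in age change, 1 by dam in age change, and 2 for any difference. With the brightest probes (of 9) they were 3 in MS, 3 in LWMS, 1 for MS against LW at day 90 and 1 by dam at day 90. LWMS gave 2 with 75th percentile scaling and with slide as a block, and MSLW gave 2 with slide as a block (CREM added). MS against LW at day 110 gave 2 (NR4A3 added) with the median signal, the deposited values, normexp, or LW and MS alone. MSLW against LWMS at day 110 gave 0 with the median signal, the deposited values and normexp. Without single fetuses the counts ranged from 1 to 2 in LWMS (2 without MSLW day 110 number 1), from 0 to 1 for MSLW against LWMS at day 110 (0 without number 1 or 3), and from 1 to 2 by dam at day 90 (1 without MS day 90 number 3). Co-variation within day 110 gave 0 called pairs. CREM in LW was -0.23 with 75th percentile scaling (adjusted p = 0.0538).

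The fetus numbers used here were assigned within each group in the order of the samples and are not the study's own fetus numbers. No paired analysis was possible because each fetus was sampled once and its sow is not in the labels. Limits: dim spots of NR4A3 and ATF3 set the size of their changes, group sizes were 5 to 9, litter was not modelled, and the time from caesarean to freezing was not analysed here.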
